A study of Mus musculus with 9 samples.

Results

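Livers of mice given glycyrrhizic acid together with gefitinib were compared with livers of mice given saline, across the whole transcriptome. The comparison used 6 of the 9 libraries of the series, taken by their treatment labels: 3 labelled glycyrrhizic acid+gefitinib (called combined here) and 3 labelled Sanitary saline. The other 3 libraries came from mice given gefitinib without glycyrrhizic acid. They shared the estimate of spread, and their values are set beside those of the combined libraries for some genes. All 3 groups are labelled as liver at 16 days. The labels name no strain, sex, age, dose or route, and no liver from mice given glycyrrhizic acid without gefitinib was analysed here. The parts of the 2 compounds in any difference from saline therefore cannot be told apart in this comparison.

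Gefitinib is a small molecule that blocks the kinase of the EGF receptor, a growth factor receptor that hepatocytes carry in abundance, and liver injury is a known side effect of it. Glycyrrhizic acid is a saponin of licorice root whose aglycone inhibits the dehydrogenases that interconvert active and inactive glucocorticoids. Most RNA of a liver comes from hepatocytes, which secrete plasma proteins, burn fatty acids and metabolise drugs, while endothelial cells, macrophages and stellate cells line or surround the sinusoids. In injured liver, macrophages that take up dead cells and lipid, and stellate cells that lay down collagen, are known to increase.

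Total counts ranged from 56440871 to 60665156 per library over the 9 libraries. Albumin, the main plasma protein of hepatocytes, took between 5.01% and 6.0% of the counts in the saline libraries and between 5.14% and 5.82% in the combined libraries. Of 27945 genes in the table, 18113 had enough counts to be tested and 9832 did not. Levels are in CPM, counts scaled to a common library size after TMM scaling, or in the deposited FPKM, which is per transcript length. Folds and adjusted p-values come from quasi-likelihood tests in edgeR, adjusted by Benjamini-Hochberg over all tested genes, with n = 3 libraries per group, and a gene is called risen or fallen at an adjusted p under 0.05. No label states that the replicates are different animals, so the p-values measure the spread between these libraries, which may be technical.

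Skeletal muscle transcripts moved with the groups and are given before any result. Of 24 tested muscle genes, 14 rose and 0 fell in the combined group. Summed over the list, muscle genes stood at 264, 225 and 245 CPM in the combined libraries and at 55.9, 39 and 38.6 CPM in the saline libraries, so the groups did not overlap. The gefitinib libraries held 305, 34.5 and 25.6 CPM, high in replicate 1 alone. Among the defining genes, 8 of the list had no count in any saline library, among them Ckm, the muscle creatine kinase, Myh1, a fast myosin heavy chain, and Tnni2, a fast troponin. Ckm was at least 184-fold and Tnni2 at least 125-fold higher in the combined group, against a floor of 3 counts per saline library. Without any 1 of the saline or combined libraries at most 1 of the muscle genes was called. The part of muscle RNA in the results was not tested. Counts from a fit that also held the muscle level of each library (muscle term) are given for each list that lost a call under it. Muscle level was high in every combined library and low in every saline library, so that fit cannot separate muscle level from treatment. A call lost or kept under it does not show whether muscle RNA had a part. Among the genes given values below, that fit lost the calls of Bcl6, Camp, Ccl2, Cd36, Cdkn1a, Cebpb, Cyp26b1, Cyp2e1, Fos, Hsd11b1, Hsd3b5, Lrat, Marco, Mt2, Mup1, Mup7, Nr3c1, Ppara, S100a8, Srebf2 and Wnt2. Of the other tissues the liver could carry, red cell genes gave 0 rises and 1 fall of 8, adipocyte genes 3 rises and 1 fall of 5, and intestinal genes 2 falls of 4. These counts were 0 adipocyte rises and 1 intestinal fall with a muscle term, under which 2 muscle genes themselves rose. Mesothelial genes gave 0 calls of 8 and pancreatic genes 0 of 2 by edgeR, with 0 and 0 at an unadjusted p under 0.05 and 0 and 1 called by DESeq2.

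**Figure D1:**
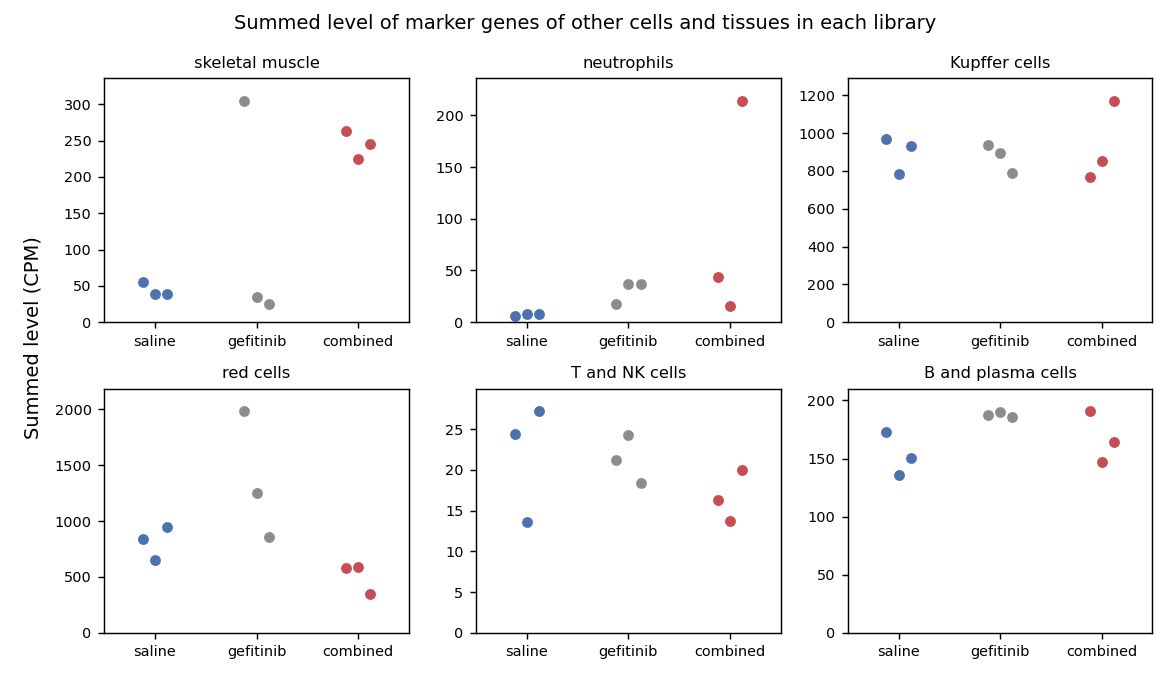
Summed level of marker genes (CPM, y axis from 0) for skeletal muscle, neutrophils, Kupffer cells, red cells, T and NK cells, and B and plasma cells; each point is 1 library, in the order saline, gefitinib and combined. Muscle genes were high in all 3 combined libraries and in gefitinib replicate 1, and neutrophil genes were highest in combined replicate 3.

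In all, 3205 of 18113 tested genes (17.7%) differed between the combined and the saline livers. Of these 1698 (9.37%) were higher and 1507 (8.32%) lower, and 5758 genes had an unadjusted p under 0.05. Rises were larger than falls. A rise of at least 2-fold was seen in 946 genes (5.22%) and a fall of that size in 557 (3.08%), and the median fold was 2.21 among genes that rose and 1.72 among those that fell. At least 8-fold changes numbered 216 upward and 45 downward. Many abundant liver transcripts fell: of the 100 genes with the highest mean FPKM in saline, 37 fell and 4 rose. Genes that fell held 27.9% of all FPKM in saline and 17.1% in the combined group, while genes that rose held 3.85% and 11.1%. These shares describe the called genes and were not tested.

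The balance of rises and falls depended on the scaling. TMM factors were lower in the saline libraries than in the combined libraries, and the median tested gene stood at a log2 fold change of -0.0090. Scaled by library size alone, the median tested gene stood at 0.20, and 2980 genes were higher and 805 lower. A muscle term left 1181 called genes, 662 higher and 519 lower. Removing the muscle genes themselves left 3203. Without saline replicate 2 there were 2136 calls, 993 of them lower, and without combined replicate 1 there were 2065, with 1127 higher and 938 lower.

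**Figure D2:**
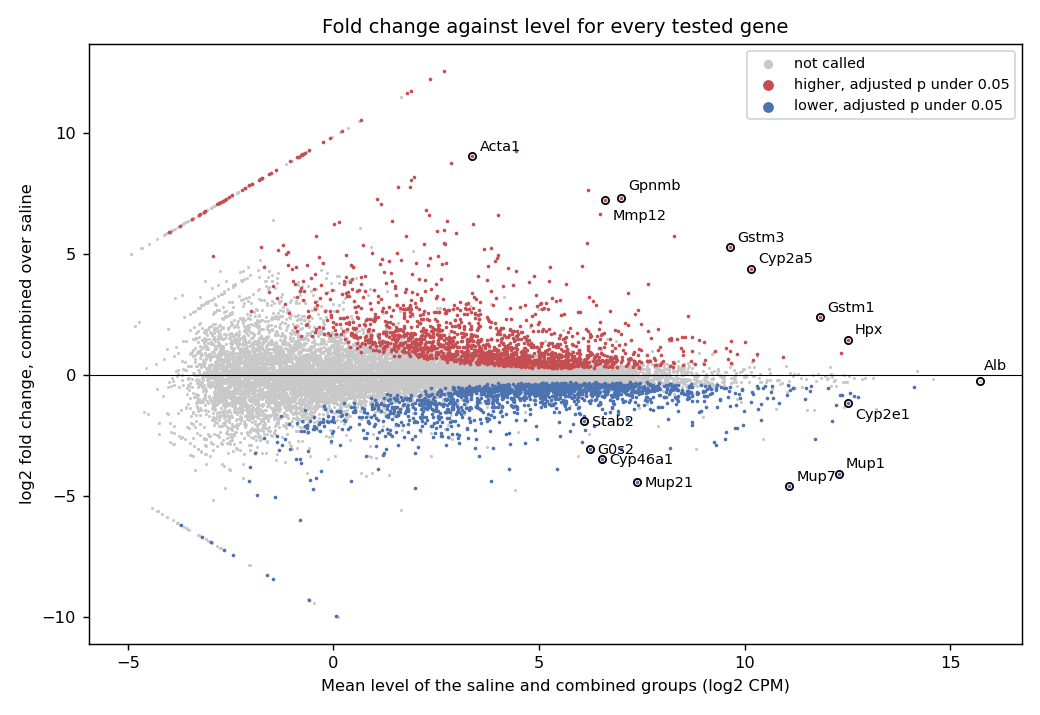
Log2 fold change of combined over saline (y axis) against mean level in log2 CPM (x axis) for the 18113 tested genes; red points rose, blue points fell and grey points were not called. Points on the straight diagonals at low level are genes at or near 0 counts in 1 group, whose fitted fold depends on the prior count. Among abundant transcripts Hpx, Gstm1 and Cyp2a5 lie above 0, and Mup1, Mup7 and Cyp2e1 lie below it.

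The changes are described below by 51 gene lists with 1153 tested members, of which 519 were called. The share of called genes among all tested genes, 9.37% higher and 8.32% lower, is the background for each count. In bulk liver RNA, fewer cells of a type and less RNA per cell cannot be told apart, which holds for every cell type list.

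**Figure D3:**
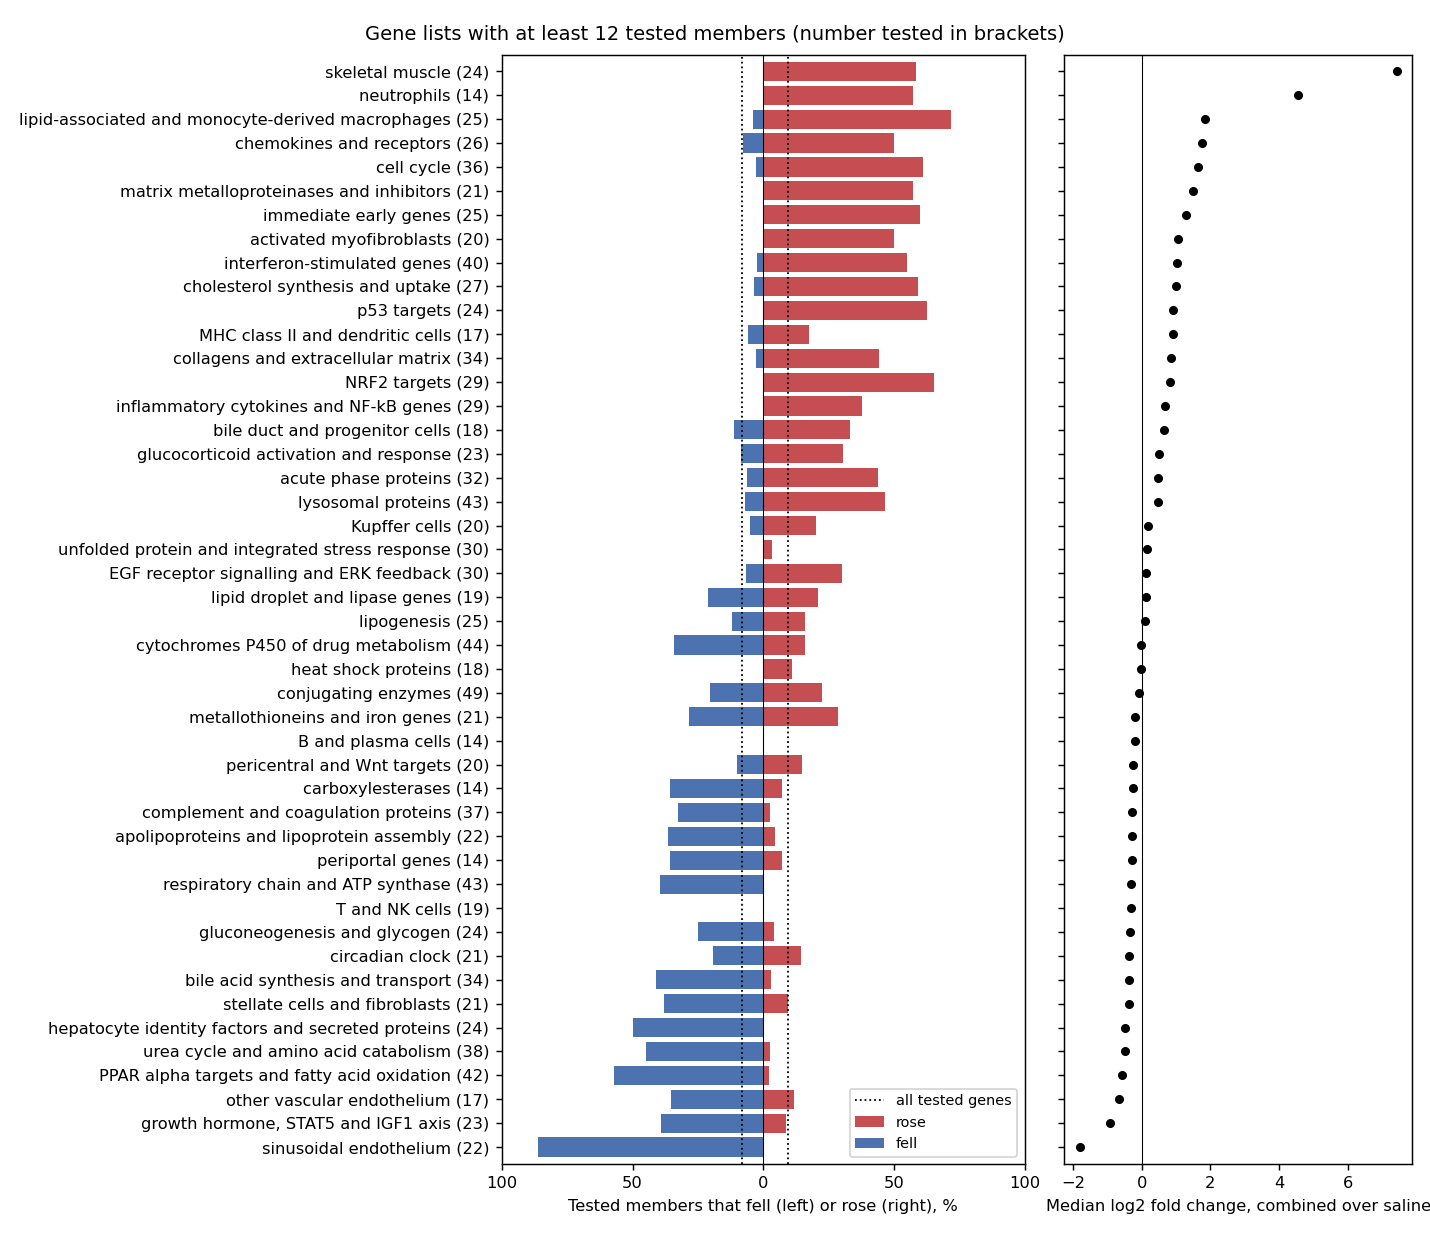
Left, the share of tested members of each list that fell (blue, to the left) or rose (red, to the right), in percent, with dotted lines at the shares among all tested genes; right, the median log2 fold change of each list, combined over saline. Sinusoidal endothelial genes lie at the bottom, with 19 of 22 fallen, and neutrophil and muscle genes at the top.

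The sinusoids are lined by a porous endothelium, and its marker genes were lower in the combined livers. Of 22 tested members 19 fell and 0 rose, with a median log2 fold change of -1.8. Stab2 (ENSMUSG00000035459, chromosome 10, 86841198 to 87008025 on the minus strand), a scavenger receptor for hyaluronan, stood at 91.5, 112 and 121 CPM in the saline libraries and 25.8, 30.2 and 32.1 CPM in the combined libraries. All 3 combined libraries lay below every saline library, a 3.68-fold fall (log2 fold change -1.88 ± 0.15 (SE), adjusted p = 9.69e-05). Tek, the angiopoietin receptor, was at 9.99, 9.998 and 11.9 CPM with saline and 1.64, 2.29 and 1.7 CPM in the combined group (5.66-fold lower, log2 fold change -2.5 ± 0.20 (SE), adjusted p = 0.000101). Fcgr2b, an inhibitory Fc receptor that clears immune complexes in the sinusoid, fell 4.35-fold and Dnase1l3, a secreted nuclease, fell 6.96-fold (adjusted p = 8.35e-05 and 0.000178). Oit3, a marker of the same cells, fell 8.09-fold, from 20.3, 15.7 and 22.4 to 1.36, 2.57 and 3.27 CPM (adjusted p = 0.000328). In the gefitinib libraries Stab2 stood at 49.4, 53.7 and 40.6 CPM and Oit3 at 4.59, 5.11 and 6.89 CPM, between the levels of the other groups. With a muscle term 16 members of the list were still called lower, and leaving out any 1 library left 17 to 19.

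Some endothelial genes outside the sinusoid fell. In the list of other vascular endothelium 6 of 17 tested members fell and 2 rose. Gpihbp1, which anchors lipoprotein lipase to the capillary wall, fell from 12.3, 9.65 and 18.9 CPM to 2.49, 2.58 and 2.49 CPM (5.4-fold, log2 fold change -2.43 ± 0.25 (SE), adjusted p = 0.000328), with no overlap. The adhesion molecules Icam1 and Vcam1, which bind leukocytes and are induced by inflammation, rose 2.8-fold and 3.55-fold (adjusted p = 0.000254 and 0.0042). Vwf, von Willebrand factor, was at 3.57, 7.94 and 7.67 CPM with saline and 3.89, 3.33 and 4.85 CPM in the combined group and did not pass (adjusted p = 0.236). Of the 6 falls, 3 were called without combined replicate 3 and 2 with a muscle term.

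Wnt2 and genes of vitamin A storage fell. Wnt2, a Wnt ligand of the central endothelium, fell from 3.06, 1.67 and 4.24 CPM to 0.367, 0.58 and 0.535 CPM (6.03-fold, adjusted p = 0.0054, and 0.115 with a muscle term). Among stellate cell and fibroblast genes 8 of 21 fell and 2 rose. Lrat, the enzyme that stores vitamin A in stellate cells, fell 2.53-fold, and Vipr1, a receptor for vasoactive intestinal peptide, fell 3.09-fold (adjusted p = 0.00355 and 0.000469). Cyp26b1, which degrades retinoic acid, was at 4.72, 5.6 and 11.3 CPM with saline and 0.44, 0.916 and 0.944 CPM in the combined group, 9.38-fold lower (log2 fold change -3.23 ± 0.53 (SE), adjusted p = 0.00336). The combined values of Cyp26b1 all lay below those of saline, and with gefitinib they were 0.811, 2.8 and 1.71 CPM. The stellate falls numbered 5 without saline replicate 1, without combined replicate 2 or with a muscle term, which also left 1 rise, and the calls of Lrat and Cyp26b1 were lost with a muscle term (adjusted p = 0.0852 and 0.0859).

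Fibrillar collagens and genes of activated myofibroblasts were higher in the same livers. Of 34 tested collagen and matrix genes 15 rose and 1 fell, with a median log2 fold change of 0.85. Col1a1 (ENSMUSG00000001506, chromosome 11, 94936224 to 94953042 on the plus strand), the alpha chain of type I collagen, stood at 6.24, 5.86 and 4.7 CPM with saline, 7.62, 9.32 and 6.11 CPM under gefitinib alone and 47.8, 71.9 and 47 CPM in the combined group. Every combined library lay above every other library, and the rise over saline was 9.92-fold (log2 fold change 3.31 ± 0.23 (SE), adjusted p = 4.67e-05). The partner chain Col1a2 rose 3.78-fold (adjusted p = 0.000841), as did the type III chain Col3a1, by 4.6-fold (adjusted p = 0.00121). Among myofibroblast genes, which share these 3 collagens, 10 of 20 rose and 0 fell. Thbs1, a matrix protein that activates latent TGF-beta, rose from 1.43, 1.19 and 0.448 CPM to 5.57, 6.17 and 7.07 CPM (6.11-fold, adjusted p = 0.00302). Acta2, the smooth muscle actin that marks myofibroblasts, overlapped between groups at 1.91, 8.11 and 0.69 CPM with saline and 3.48, 4.49 and 3.19 CPM in the combined group (adjusted p = 0.976). The myofibroblast count was 6 without saline replicate 3 and 5 without combined replicate 2 or with a muscle term, and the collagen list gave 5 rises and 0 falls with a muscle term.

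Matrix-degrading enzymes rose beside the collagens. Of 21 tested metalloproteinases, plasminogen activators and their inhibitors, 12 rose and 0 fell. Mmp12 (ENSMUSG00000049723, chromosome 9, 7344381 to 7369499 on the plus strand), the elastase of macrophages, stood at 1.48, 1.58 and 0.784 CPM with saline and 194, 216 and 173 CPM in the combined group (log2 fold change 7.25 ± 0.42 (SE), adjusted p = 2.32e-05). Mmp13 (ENSMUSG00000050578, chromosome 9, 7272514 to 7283331 on the plus strand), the main interstitial collagenase of rodents, was at 0.179, 0.231 and 0.0746 CPM with saline and 16, 14.8 and 9.35 CPM in the combined group (82.2-fold, log2 fold change 6.36 ± 0.46 (SE), adjusted p = 6.19e-05). Neither gene overlapped between groups, and with gefitinib they stood at 12.3, 19.5 and 7.23 CPM and 0.396, 0.816 and 0.455 CPM. Adam8, a membrane protease of myeloid cells, rose 38.5-fold, and Plau, the urokinase plasminogen activator, rose 7.38-fold (adjusted p = 9.07e-05 and 0.000556). The count was 7 with a muscle term.

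Because Mmp13 rose with the genes of AP-1 described below, the 250 bases before its start are shown, chosen after the values were seen. They come from RefSeq (GRCm38.p6, chr9:7272264-7272513, plus strand) and read 5′ to 3′, with the AP-1 match in capitals.
Mmp13: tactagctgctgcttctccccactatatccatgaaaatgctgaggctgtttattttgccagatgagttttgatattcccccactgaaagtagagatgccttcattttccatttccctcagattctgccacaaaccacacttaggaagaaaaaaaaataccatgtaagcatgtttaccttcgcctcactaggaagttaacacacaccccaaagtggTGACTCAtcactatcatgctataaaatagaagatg
The capitals are the letters TGAGTCA read on the opposite strand, the only match in this window, and begin 35 bases before the start. Of the 12 enzymes and inhibitors that rose, 8 had a promoter in the RefSeq table, and 2 of them, Mmp13 and Plaur, held the match on either strand. Among 12145 promoters of tested genes 3.32% held it. A match in letters does not show a bound site.

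Macrophage genes known from lipid-laden and newly recruited cells rose by large folds. In the list of lipid-associated and monocyte-derived macrophages 18 of 25 members rose and 1 fell, with a median log2 fold change of 1.84. Gpnmb (ENSMUSG00000029816, chromosome 6, 49036546 to 49070929 on the plus strand), a glycoprotein of phagocytes loaded with lipid, was at 1.88, 1.42 and 1.38 CPM with saline, 6.39, 10.1 and 5.95 CPM under gefitinib alone and 265, 316 and 182 CPM in the combined group. The 3 groups did not overlap, and the rise over saline was 163-fold (log2 fold change 7.35 ± 0.32 (SE), adjusted p = 5.89e-06). Lgals3, galectin 3, rose from 3.43, 2.15 and 3.83 CPM to 137, 158 and 125 CPM (44.5-fold, log2 fold change 5.48 ± 0.29 (SE), adjusted p = 1.25e-05). Capg, an actin capping protein, rose 29-fold and Atp6v0d2, a subunit of the lysosomal proton pump, rose 13-fold (adjusted p = 1.15e-05 and 2.04e-05). Chil3, a chitinase-like protein of activated macrophages, was at 0.0715, 0 and 0 CPM with saline and 1.98, 2.86 and 7.65 CPM in the combined group (adjusted p = 0.00128). The member that fell was Apoe, which hepatocytes also make. The Apoe call was lost in 10 of 21 alternative settings, among them library size alone and only the 6 libraries compared. It was also lost without saline replicate 3, gefitinib replicate 2, or combined replicate 1 or 2. Leaving out any 1 library left 18 or 19 rises, and a muscle term left 15 rises and 0 falls.

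Most genes of resident Kupffer cells did not pass. Of 20 tested members 4 rose and 1 fell, and the other 15 did not pass. Clec4f, a lectin confined to Kupffer cells, overlapped between groups at 101, 73.7 and 132 CPM with saline and 73.8, 90.2 and 171 CPM in the combined group (adjusted p = 0.827). Cd68, a lysosomal membrane protein of all macrophages, rose 7.26-fold, and Marco, a scavenger receptor, rose 6.18-fold (adjusted p = 5.05e-05 and 0.00403). Slc40a1, the iron exporter ferroportin, fell from 182, 175 and 157 CPM to 85.5, 72.7 and 98.8 CPM (2.0-fold, log2 fold change -1.0 ± 0.15 (SE), adjusted p = 0.00178). The number of rises was 2 without saline replicate 1 or 2, without any 1 of the gefitinib libraries, or without combined replicate 3, and 1 with a muscle term.

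Many lysosomal genes rose as well, and some of them are abundant in hepatocytes. Of 43 tested members 20 rose and 3 fell. Ctsd (ENSMUSG00000007891, chromosome 7, 142375911 to 142388038 on the minus strand), the aspartic protease of the lysosome, stood at 294, 278 and 281 CPM with saline, 428, 391 and 386 CPM under gefitinib alone and 742, 781 and 713 CPM in the combined group. Its groups did not overlap and the rise over saline was 2.62-fold (log2 fold change 1.39 ± 0.10 (SE), adjusted p = 5.05e-05). Ctss, a cysteine protease of antigen-presenting cells, rose from 16, 14.4 and 20.4 CPM to 130.4, 141 and 151 CPM (8.32-fold, adjusted p = 2.75e-05). Lamp1, the abundant membrane protein of lysosomes, was at 606, 632 and 556 CPM with saline and 704, 716 and 691 CPM in the combined group and did not pass (adjusted p = 0.139). The 3 that fell were Ctsf, Scarb2 and Gaa. Scaled by library size alone, 27 rose and 1 fell, and with a muscle term 14 rose and 1 fell.

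The promoter of Ctsd is printed because it holds the core of the CLEAR element, the sequence that lysosomal regulators of the MiT family are known to bind; it was chosen after the values were seen. The 250 bases are from RefSeq (GRCm38.p6, chr7:142387828-142388077, minus strand), 5′ to 3′, with the core in capitals.
Ctsd: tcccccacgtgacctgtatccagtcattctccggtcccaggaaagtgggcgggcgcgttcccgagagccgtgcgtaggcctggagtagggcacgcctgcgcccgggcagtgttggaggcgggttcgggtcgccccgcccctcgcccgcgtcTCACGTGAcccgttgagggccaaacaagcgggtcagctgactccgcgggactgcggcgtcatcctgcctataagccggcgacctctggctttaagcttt
The core, TCACGTGA, is its own reverse complement and begins 99 bases before the start that RefSeq gives. That start lies inside the gene as the deposited table gives it, so most of the window lies within the deposited span. The core was in 2 of the 14 lysosomal genes that rose and had a promoter in the table, Ctsd and Gla. Of all tested lysosomal genes 32 had a promoter there and 4 held the core, so it was not confined to those that rose. Among the promoters of all tested genes 1.42% held it.

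Inflammatory and interferon-stimulated genes were higher as well. Of 26 tested chemokines and receptors 13 rose and 2 fell, and of 29 inflammatory and NF-kB genes 11 rose and 0 fell. Ccl2, which draws monocytes, was at 0.214, 0.0769 and 0.728 CPM with saline and 7.7, 4.29 and 3.08 CPM in the combined group (14.7-fold, log2 fold change 3.88 ± 0.71 (SE), adjusted p = 0.00556). Cxcl2, which draws neutrophils, rose 13.5-fold, and Tlr2, a receptor for bacterial lipoproteins, rose 6.07-fold (adjusted p = 0.000716 and 0.00011). Cxcl12, which holds lymphocytes and progenitors in tissue, fell from 391, 408 and 349 CPM to 178, 176 and 167 CPM (2.2-fold, log2 fold change -1.14 ± 0.11 (SE), adjusted p = 0.00022). Tnf did not pass, at 0.786, 0.365 and 0.187 CPM with saline and 0.689, 0.703 and 1.09 CPM in the combined group (adjusted p = 0.608). The inflammatory count was 7 without saline replicate 2 or with a muscle term, the chemokine list gave 4 rises and 1 fall with a muscle term, and Ccl2 was then not called (adjusted p = 0.0968).

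Among 40 interferon-stimulated genes 22 rose and 1 fell, with a median log2 fold change of 1.04. Usp18, a protease that removes ISG15 and damps interferon signalling, stood at 5.15, 2.96 and 3.55 CPM with saline and 23.1, 16.7 and 17.9 CPM in the combined group (4.94-fold, log2 fold change 2.3 ± 0.25 (SE), adjusted p = 0.000373). Irf7, a transcription factor of the interferon response, rose 6.06-fold and Oas1a, a sensor of double-stranded RNA, rose 7.61-fold (adjusted p = 0.000935 and 0.000536). Ifitm3, a membrane protein that restricts viral entry, was among the largest rises in FPKM, from 245, 188 and 154 FPKM to 686, 512 and 662 FPKM (2.72-fold, adjusted p = 0.000797). The gene that fell was Iigp1, an interferon-inducible GTPase. The list gave 11 rises and 0 falls with a muscle term.

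Neutrophil genes were highest in 1 library. Of 14 tested members 8 rose and 0 fell. Their summed level was 5.86, 8.33 and 7.95 CPM in the saline libraries and 43.8, 15.2 and 214 CPM in the combined libraries, so combined replicate 3 held most of it. S100a8, a calcium-binding protein of neutrophils, was at 0.268, 0.75 and 0.541 CPM with saline, 2.43, 5.63 and 5.74 CPM under gefitinib alone and 4.96, 1.65 and 32.1 CPM in the combined group (log2 fold change 4.63 ± 1.02 (SE), adjusted p = 0.0128). The antimicrobial peptide gene Camp stood at 0, 0.0769 and 0.112 CPM and 2.63, 0.336 and 12.9 CPM (adjusted p = 0.011). Without combined replicate 3, 6 members were called, without saline replicate 3, 4 were, and with a muscle term 1 was. T and NK cell genes gave 0 calls of 19 by edgeR and B and plasma cell genes 0 of 14, with 1 and 1 at an unadjusted p under 0.05 and 1 and 1 called by DESeq2. Cd3e, a chain of the T cell receptor complex, was at 0.375, 0.442 and 1.4 CPM with saline and 0.367, 0.275 and 0.236 CPM in the combined group and did not pass (adjusted p = 0.18). Of 17 tested genes of MHC class II and dendritic cells 3 rose, Cd74, H2-Ab1 and H2-Aa, and 1, Zbtb46, fell. Cd74, the invariant chain of class II, rose from 49.5, 30.6 and 51.6 CPM to 115, 129.8 and 166 CPM (3.13-fold, adjusted p = 0.00109). That list gave 2 rises and 0 falls with a muscle term, and there 1 T or NK cell gene was called lower.

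**Figure D4:**
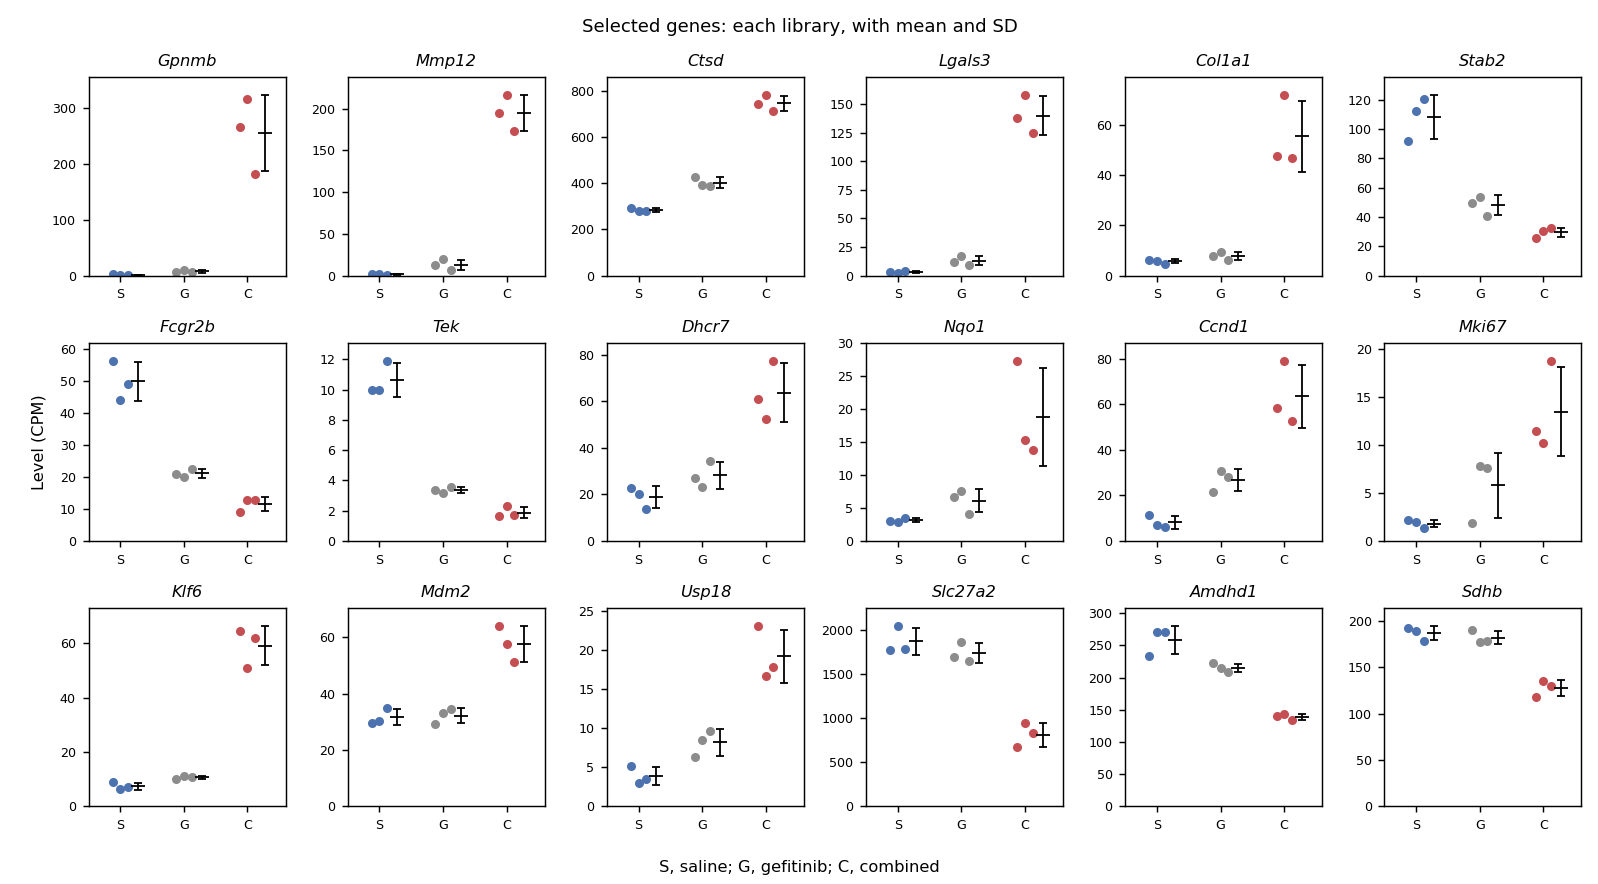
Level in CPM (y axis from 0, own scale per gene) of 18 genes in every library; points are libraries, and bars are the mean and SD of each group of 3. Gpnmb, Mmp12 and Col1a1 were highest in the combined libraries, while Stab2, Tek and Fcgr2b stepped down from saline to gefitinib to combined.

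Many stress-responsive transcription factors rose. Of 25 tested immediate early genes 15 rose and 0 fell, with a median log2 fold change of 1.3. Klf6 (ENSMUSG00000000078, chromosome 13, 5861482 to 5870394 on the plus strand), a zinc finger factor induced by injury, stood at 8.79, 6.27 and 7.18 CPM with saline, 9.94, 11 and 10.9 CPM under gefitinib alone and 64.5, 50.9 and 61.9 CPM in the combined group. The combined libraries lay above every other library (7.96-fold over saline, log2 fold change 2.99 ± 0.15 (SE), adjusted p = 1.16e-05). Atf3, a stress-induced factor, rose from 1.36, 0.673 and 1.32 CPM to 31.6, 32.3 and 24 CPM (26.1-fold, log2 fold change 4.71 ± 0.27 (SE), adjusted p = 2.15e-05). Among AP-1 subunits Jun rose 6.82-fold, Jund rose 3.38-fold and Fos rose 3.18-fold (adjusted p = 0.00038, 0.000187 and 0.00931). Fos stood at 0.54, 0.616 and 0.84 CPM with gefitinib, below every saline library at 3.61, 1.56 and 2.02 CPM, and at 9.23, 7.85 and 5.82 CPM in the combined group. There were 10 rises in the list with a muscle term, and Fos was not called (adjusted p = 0.0849).

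Targets of p53, the transcription factor activated by DNA damage, rose in 15 of 24 cases and fell in 0. Trp53inp1, which promotes p53 activity and autophagy, was at 60.8, 47.1 and 39.5 CPM with saline and 171, 207 and 288 CPM in the combined group (4.52-fold, log2 fold change 2.18 ± 0.22 (SE), adjusted p = 0.000311). Gdf15, a stress hormone that the injured liver secretes, rose 4.85-fold, and Mdm2, the ubiquitin ligase of p53, rose 1.82-fold (adjusted p = 0.000722 and 0.00124). Cdkn1a, the cell cycle inhibitor p21, was at 24.7, 39.9 and 74.3 CPM with saline, 8.99, 9.69 and 8.0 CPM under gefitinib alone and 113, 104 and 179 CPM in the combined group, a 2.85-fold rise (log2 fold change 1.51 ± 0.35 (SE), adjusted p = 0.0163). That call was lost without saline replicate 2 (adjusted p = 0.0643), without combined replicate 3 (0.0571) and with a muscle term (0.135), under which 10 of the list rose.

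Cell cycle genes rose at low levels. Of 36 tested members 22 rose and 1 fell, and the median log2 fold change was 1.64. Ccnd1, cyclin D1, which overlaps LTO1 on the opposite strand, stood at 11.2, 6.92 and 6.27 CPM with saline and 58.2, 79.1 and 52.8 CPM in the combined group (7.8-fold, log2 fold change 2.96 ± 0.25 (SE), adjusted p = 0.00014). Mki67, the marker of dividing cells, was at 2.13, 1.92 and 1.36 CPM with saline and 11.5, 10.2 and 18.7 CPM in the combined group (7.45-fold, log2 fold change 2.9 ± 0.49 (SE), adjusted p = 0.00392). With gefitinib it was at 1.89, 7.79 and 7.63 CPM, where replicate 1 lay within the saline range and the others between the groups. The helicase subunits Mcm2 and Mcm6, which license replication, rose 2.77-fold and 3.02-fold (adjusted p = 0.00196 and 0.000643). The gene that fell was E2f8, a repressor of the E2F family. With a muscle term 15 were called higher.

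Some genes of EGF receptor signalling and ERK feedback rose. Of 30 tested members 9 rose and 2 fell. Egfr (ENSMUSG00000020122, chromosome 11, 16752203 to 16918158 on the plus strand), the target of gefitinib, overlapped between the groups at 499, 270.4 and 366 CPM with saline and 371, 429 and 606 CPM in the combined group and did not pass (adjusted p = 0.463). The ligand Tgfa rose 2.41-fold and the ligand Nrg1, which binds the related receptors ERBB3 and ERBB4, rose from 0.0715, 0.231 and 0.205 CPM to 10.5, 3.5 and 3.05 CPM (adjusted p = 0.000886 and 0.00193). The ERK phosphatase Dusp5 rose 5.37-fold and the ERK-responsive factor Ets2 rose 2.26-fold (adjusted p = 0.000442 and 0.000434). Those that fell were Erbb3, a receptor of the family, and Spry4, a feedback inhibitor. Both falls were lost with a muscle term, which left 6 rises.

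Glucocorticoid genes are given because the aglycone of glycyrrhizic acid inhibits enzymes that interconvert active and inactive glucocorticoids. The parts of the 2 compounds in their levels cannot be told apart here. Hsd11b1 (ENSMUSG00000016194, chromosome 1, 193221634 to 193243561 on the minus strand), which regenerates active glucocorticoid in liver and overlaps Lamb3 on the opposite strand, was at 543, 647 and 665 CPM with saline, 544, 416 and 516 CPM under gefitinib alone and 319.8, 429.5 and 444 CPM in the combined group. All combined values lay below those of saline (1.55-fold, log2 fold change -0.64 ± 0.16 (SE), adjusted p = 0.0222). The call was lost without saline replicate 2 (adjusted p = 0.0682), saline replicate 3 (0.0683) or combined replicate 1 (0.0666) and with a muscle term (0.112). Nr3c1, the glucocorticoid receptor, fell from 62.7, 58.4 and 50.4 CPM to 44.2, 38.2 and 40.1 CPM (1.4-fold, log2 fold change -0.49 ± 0.11 (SE), adjusted p = 0.0131). Scaled by library size alone it was not called (adjusted p = 0.141), nor without saline replicate 1 (0.051) or combined replicate 2 (0.0527). Hsd11b2, which inactivates glucocorticoids in kidney, had too few counts to test. Of 23 genes in the list 7 rose and 2 fell. The rises were Lcn2, Cebpb, Sgk1, Mt2, Igfbp1, Mt1 and Tat. Of these, Lcn2, Mt2, Igfbp1, Mt1 and Tat are also members of other lists here. The other 14 genes, among them Fkbp5, Per1 and Dusp1, did not pass. Sgk1, a kinase induced by glucocorticoids, rose from 21.3, 19.1 and 22.5 CPM to 32.4, 37.5 and 56.2 CPM, a 2.0-fold rise (adjusted p = 0.0173, 0.0643 without saline replicate 2 and 0.0562 without combined replicate 3). The number of rises was 3 without saline replicate 1, 1 without saline replicate 2, 2 without combined replicate 3 and 3 with a muscle term, which left 0 falls.

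Several major urinary proteins, pheromone carriers that growth hormone induces and hepatocytes secrete, fell. Mup3 stood at 5293, 5647 and 5492 FPKM with saline, 3265, 2431 and 3256 FPKM with gefitinib and 1046, 2083 and 1991 FPKM in the combined group. The 3 groups did not overlap, and the fall from saline was 3.72-fold (log2 fold change -1.9 ± 0.26 (SE), adjusted p = 0.00134). Mup7 was at 784, 4298 and 4820.2 FPKM with saline and 389, 50.3 and 55.5 FPKM in the combined group (24.3-fold, log2 fold change -4.6 ± 0.96 (SE), adjusted p = 0.0102). Mup1 stood at 743, 7235 and 6617 FPKM and 147, 714 and 164 FPKM (16.8-fold, log2 fold change -4.07 ± 0.90 (SE), adjusted p = 0.0133). Saline replicate 1 was low for both Mup1 and Mup7, and both groups still did not overlap. Members of this family are near-identical, so how reads were divided among them is uncertain. Mup1 was not called without combined replicate 3 (adjusted p = 0.0516), and neither was with a muscle term (adjusted p = 0.0784 and 0.101).

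Some genes of the growth hormone axis fell, and most did not pass. Of 23 tested genes of the growth hormone, STAT5 and IGF1 list, 9 fell and 2 rose, with a median log2 fold change of -0.93. The falls include the major urinary proteins Mup3, described above, and Mup20. Igfals, which stabilises IGF1 in plasma, fell from 176, 104 and 123 CPM to 42.8, 54.2 and 55.1 CPM (2.65-fold, log2 fold change -1.4 ± 0.19 (SE), adjusted p = 0.00112). Hsd3b5, a steroid dehydrogenase of male mouse liver, was at 208, 79 and 56.6 CPM with saline and 8.4, 27.6 and 13.9 CPM in the combined group (6.9-fold, adjusted p = 0.00718, and 0.0637 with a muscle term). Bcl6, a repressor that opposes STAT5, rose from 16.4, 28.8 and 16 CPM to 46.7, 47 and 45.3 CPM (2.27-fold, log2 fold change 1.18 ± 0.23 (SE), adjusted p = 0.00736) and stood at 11.9, 8.94 and 13.7 CPM with gefitinib, below every saline library. With a muscle term 3 of the list fell and 1 rose, and Bcl6 was not called (adjusted p = 0.0849).

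Regulators of hepatocyte identity and plasma proteins fell in 12 of 24 cases and rose in 0. Cebpa (ENSMUSG00000034957, chromosome 7, 35119293 to 35121928 on the plus strand), a transcription factor of mature hepatocytes, stood at 261, 281 and 262 CPM with saline, 382, 292 and 288 CPM under gefitinib alone and 139.6, 135 and 104 CPM in the combined group. Every combined library lay below every other library (2.13-fold, log2 fold change -1.09 ± 0.15 (SE), adjusted p = 0.00126). Cebpb, a related factor that is induced by inflammation, was at 78.3, 63.5 and 78 CPM with saline and 123, 129 and 222 CPM in the combined group (2.16-fold, log2 fold change 1.11 ± 0.25 (SE), adjusted p = 0.0135), a call lost without saline replicate 2 (adjusted p = 0.0554). Serpina1c, an alpha-1-antitrypsin gene, fell from 5961, 5067 and 5509 FPKM to 3010.3, 3288 and 3905 FPKM (1.88-fold, log2 fold change -0.91 ± 0.13 (SE), adjusted p = 0.00186), and reads of its near-identical neighbours can be shared. Alb itself was at 56359, 66362 and 52762 CPM with saline and 46592, 47589 and 55431 CPM in the combined group, which overlapped (adjusted p = 0.259). The falls numbered 7 with a muscle term.

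**Figure D5:**
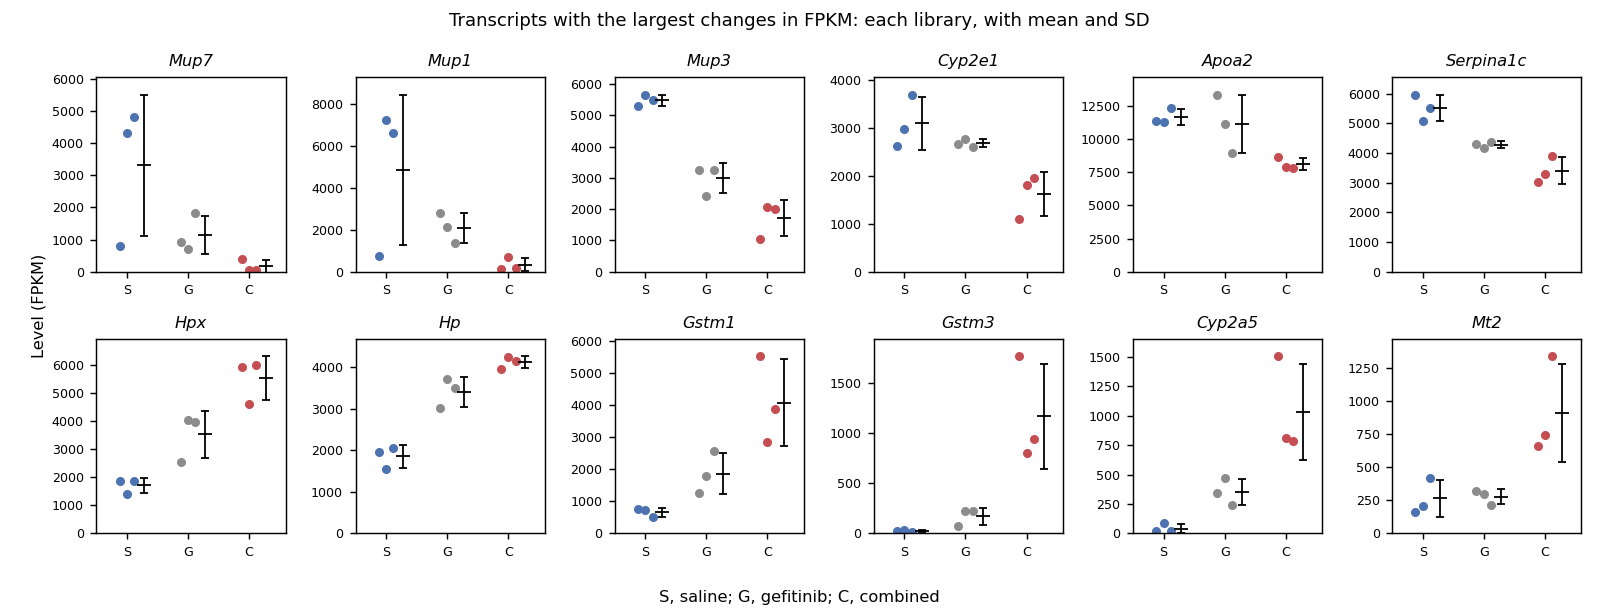
Level in FPKM (y axis from 0, own scale per gene) of 12 transcripts with large differences in FPKM, in every library; points are libraries, and bars are the mean and SD of each group of 3. Mup7, Mup1 and Mup3 were lowest in the combined libraries, and Hpx, Gstm1, Gstm3 and Cyp2a5 were highest there.

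Acute phase proteins, which hepatocytes release on inflammation, went the other way. Of 32 tested members 14 rose and 2 fell. Hpx (ENSMUSG00000030895, chromosome 7, 105591613 to 105600137 on the minus strand), hemopexin, which binds free heme, stood at 1859, 1408 and 1877 FPKM with saline, 2551, 4042 and 3991 FPKM with gefitinib and 5945, 4624 and 6015 FPKM in the combined group. The combined libraries lay above every other library (2.77-fold over saline, log2 fold change 1.47 ± 0.19 (SE), adjusted p = 0.000853). Hp, haptoglobin, which binds free hemoglobin, rose from 1950.5, 1544 and 2058 FPKM to 3949, 4231 and 4146 FPKM and was at 3006, 3721 and 3484 FPKM with gefitinib (1.91-fold, log2 fold change 0.93 ± 0.13 (SE), adjusted p = 0.00124). Lcn2, which withholds iron from bacteria, was at 4.15, 18.9 and 11.1 CPM with saline and 775, 449.5 and 603 CPM in the combined group (53.5-fold, log2 fold change 5.74 ± 0.52 (SE), adjusted p = 0.000173). Cd14, the co-receptor for endotoxin, rose 17-fold and Saa1, a serum amyloid, rose 3.51-fold (adjusted p = 0.000328 and 0.00552). Those that fell were Hamp2, a paralog of hepcidin, and Serpina3m, a serine protease inhibitor. Hamp2 stood at 21.5, 45.1 and 42.6 CPM with saline and 2.38, 2.14 and 2.83 CPM in the combined group (14.9-fold, log2 fold change -3.89 ± 0.43 (SE), adjusted p = 0.000469). Among acute phase genes a muscle term left 10 rises and 1 fall.

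Complement and coagulation proteins fell in 12 of 37 cases and rose in 1, with a median log2 fold change of -0.27. F7, coagulation factor VII, was at 122, 124 and 123 CPM with saline and 84.3, 83 and 87.4 CPM in the combined group (1.45-fold, log2 fold change -0.53 ± 0.082 (SE), adjusted p = 0.00226). Klkb1, plasma prekallikrein, fell 1.79-fold (adjusted p = 0.00213). These small falls were sensitive to scaling. By library size alone 4 fell and 3 rose. The falls numbered 7 without saline replicate 1, 6 without saline replicate 2, 6 without combined replicate 1, 7 without combined replicate 2, 7 without combined replicate 3, and 2 with a muscle term.

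Drug-metabolising enzymes went both ways, also within families. Cyp2c55 rose, while Cyp2c68, Cyp2c54, Cyp2c69, Cyp2c40 and Cyp2c67 fell. Of 44 tested cytochrome P450 genes and their regulators 7 rose and 15 fell, and their median of -0.014 turned to 0.19 when scaled by library size alone. Cyp2a5 (ENSMUSG00000005547, chromosome 7, 26835305 to 26843548 on the plus strand), the coumarin hydroxylase, stood at 18.5, 85.6 and 17.6 FPKM with saline, 345, 469.98 and 244 FPKM with gefitinib and 1504, 813 and 781 FPKM in the combined group. The 3 groups did not overlap (21.2-fold over saline, log2 fold change 4.41 ± 0.66 (SE), adjusted p = 0.00202), and reads can be shared with the near-identical Cyp2a4, which rose 22.7-fold (adjusted p = 0.00243). Cyp2e1, the enzyme that oxidises ethanol and acetaminophen, fell from 2615, 2964 and 3684 FPKM to 1088, 1809 and 1949 FPKM (2.22-fold, log2 fold change -1.15 ± 0.23 (SE), adjusted p = 0.00803). With a muscle term Cyp2e1 was not called (adjusted p = 0.0912). Cyp3a11, the main drug-oxidising P450 of mouse liver, was at 4465, 5974 and 6136 CPM with saline and 4678, 6263 and 5517 CPM in the combined group, which overlapped (adjusted p = 0.981). Cyp1a2, an enzyme of arylamine metabolism, rose 2.63-fold (adjusted p = 0.00526), and Cyp2u1 and Cyp2d26 fell 5.39-fold and 1.81-fold (adjusted p = 0.00229 and 0.00161). The falls numbered 9 without combined replicate 1, and with a muscle term 4 rose and 6 fell.

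Among conjugating enzymes 11 of 49 rose and 10 fell. Glutathione transferases led the rises, though the transferases Gstz1 and Gstk1 fell. Ugt2b35 rose, while its relatives Ugt2b1 and Ugt2a3 fell. Gstm1 stood at 760.2, 719 and 498 FPKM with saline, 1259, 1778 and 2553 FPKM with gefitinib and 5508, 2853 and 3859.6 FPKM in the combined group, in 3 steps that did not overlap (5.27-fold over saline, log2 fold change 2.4 ± 0.30 (SE), adjusted p = 0.000757). Gstm3 rose from 23.6, 36.4 and 15.2 FPKM to 1762, 796 and 936 FPKM (39.2-fold, log2 fold change 5.29 ± 0.54 (SE), adjusted p = 0.000287), and Gsta1 from 0.947, 2.38 and 1.9 CPM to 254, 156 and 122 CPM (102-fold, log2 fold change 6.67 ± 0.70 (SE), adjusted p = 0.000335). Reads of these paralogs can be shared. Ugdh, which makes the glucuronic acid donor, rose 3.77-fold (adjusted p = 0.00014), whereas Ugt1a1, the bilirubin transferase that shares exons with its neighbours, did not pass (adjusted p = 0.133). The falls, among them the glucuronosyl- and sulfotransferases Ugt2a3, Ugt3a1 and Sult1b1, numbered 6 without saline replicate 2 or combined replicate 1 and 4 with a muscle term, which left 9 rises. Of 14 tested carboxylesterases, which cleave ester drugs and lipids, 5 fell and 1 rose. Ces3b fell from 839, 565 and 632 CPM to 119, 179 and 192 CPM (4.15-fold, log2 fold change -2.05 ± 0.21 (SE), adjusted p = 0.000279), and 3 of the family fell without saline replicate 1, without combined replicate 1 or with a muscle term, which left 0 rises.

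Targets of NRF2, the transcription factor activated by electrophiles and oxidants, rose in 19 of 29 cases and fell in 0, with a median log2 fold change of 0.83. Nqo1, a quinone reductase, was at 3.06, 2.88 and 3.51 CPM with saline, 6.7, 7.49 and 4.13 CPM under gefitinib alone and 27.3, 15.2 and 13.8 CPM in the combined group (5.97-fold over saline, log2 fold change 2.58 ± 0.31 (SE), adjusted p = 0.000663). Srxn1, sulfiredoxin, rose from 26.2, 28.1 and 28.7 CPM to 673, 235 and 218 CPM (13.6-fold, log2 fold change 3.76 ± 0.40 (SE), adjusted p = 0.000378). Pgd and G6pdx, enzymes of the pentose phosphate pathway that make NADPH, rose 6.13-fold and 4.91-fold (adjusted p = 0.00016 and 0.000226). Abcc4, an efflux pump of the basolateral membrane, was at 1.39, 1.06 and 2.61 CPM with saline and 61.2, 23.9 and 24 CPM in the combined group (21.5-fold, log2 fold change 4.43 ± 0.50 (SE), adjusted p = 0.000469). Combined replicate 1 was the highest library for Nqo1, Srxn1, Pgd and Abcc4. The count was 11 with a muscle term.

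Cholesterol synthesis genes rose together. Of 27 tested genes of synthesis and uptake 16 rose and 1, Scap, fell. Dhcr7 (ENSMUSG00000058454, chromosome 7, 143823145 to 143848410 on the plus strand), an enzyme of the last steps, stood at 22.9, 19.997 and 13.9 CPM with saline, 27.2, 23.1 and 34.2 CPM under gefitinib alone and 61.1, 52.6 and 77.6 CPM in the combined group (3.37-fold over saline, log2 fold change 1.75 ± 0.22 (SE), adjusted p = 0.000824). The 3 groups did not overlap. Srebf2, the transcription factor of the pathway, rose 1.72-fold (adjusted p = 0.00475). Without saline replicate 2, 10 rose. With a muscle term 2 rose and 0 fell, and the median was 0.79 against 0.99.

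Hmgcs1, a synthase of the early pathway, is shown for a match to the letters of a sterol regulatory element. It is not among the genes named by rule and was chosen after its values were seen. It stood at 155, 123 and 72.3 CPM with saline and 174, 234 and 306 CPM in the combined group (2.04-fold, log2 fold change 1.03 ± 0.31 (SE), adjusted p = 0.0451). The 250 bases before its start are from RefSeq (GRCm38.p6, chr13:119690101-119690350, plus strand), 5′ to 3′, with the match in capitals.
Hmgcs1: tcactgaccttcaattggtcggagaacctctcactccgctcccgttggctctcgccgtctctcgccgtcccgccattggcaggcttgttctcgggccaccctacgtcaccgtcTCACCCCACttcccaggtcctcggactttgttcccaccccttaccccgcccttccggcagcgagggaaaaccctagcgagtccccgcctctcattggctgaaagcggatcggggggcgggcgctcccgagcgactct
The letters searched were TCACNCCAC on both strands, where N is any base, and were not among the motifs planned for the search. The match begins 137 bases before the RefSeq start, which lies upstream of the deposited start. Of the 16 cholesterol genes that rose, 11 had a promoter in the table and 1, Hmgcs1, held a match. Among the promoters of all tested genes 1.01% held it. Such a match in letters does not show a bound site.

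Bile acid genes mostly fell or did not pass. Of 34 tested members 14 fell and 1 rose, the uptake carrier Slco1a4. Cyp8b1, which sets the share of cholic acid, was at 469, 638 and 614 CPM with saline and 234, 313 and 271 CPM in the combined group (2.1-fold, log2 fold change -1.07 ± 0.16 (SE), adjusted p = 0.00209). Slc10a1, the sodium-coupled bile acid importer, fell from 501, 596 and 456 CPM to 210.2, 325 and 263 CPM (1.94-fold, log2 fold change -0.96 ± 0.17 (SE), adjusted p = 0.00436). Cyp7a1, the rate-limiting enzyme, stood at 60.9, 27.2 and 47.7 CPM with saline, 189, 384 and 175 CPM under gefitinib alone and 78.8, 76.9 and 47.3 CPM in the combined group. The combined values overlapped those of saline (adjusted p = 0.314). Cyp46a1, another cholesterol hydroxylase, fell from 139.7, 113 and 255 CPM to 4.43, 18.8 and 22.8 CPM (11-fold, log2 fold change -3.46 ± 0.64 (SE), adjusted p = 0.00594). The falls numbered 8 without saline replicate 2, 9 without combined replicate 1, 9 when scaled by library size alone and 5 with a muscle term, which left 0 rises.

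Many fatty acid oxidation genes fell. Of 42 tested targets of PPAR alpha and enzymes of oxidation 24 fell and 1 rose, with a median log2 fold change of -0.58. Slc27a2, which imports and activates very long fatty acids, stood at 1777, 2048 and 1792 CPM with saline, 1691, 1871 and 1654 CPM under gefitinib alone and 674, 945 and 828 CPM in the combined group. Every combined library lay below every other library (2.3-fold, log2 fold change -1.2 ± 0.14 (SE), adjusted p = 0.000606). Cyp4a10, a fatty acid hydroxylase that PPAR alpha induces, fell from 1280.4, 492 and 1423 CPM to 165, 215 and 95.5 CPM (6.73-fold, log2 fold change -2.75 ± 0.46 (SE), adjusted p = 0.00344). Ppara itself was at 39.96, 61.6 and 32.6 CPM with saline and 19, 25.7 and 24.9 CPM in the combined group (1.93-fold, adjusted p = 0.0256), a call lost without saline replicate 2 (0.082) or any 1 of the combined libraries (0.0929, 0.0501 and 0.0599). The gene that rose was Cd36, a fatty acid receptor that macrophages also carry (5.48-fold, adjusted p = 0.00595). The falls numbered 15 without saline replicate 3, 11 without combined replicate 1, 12 without combined replicate 3, 13 when scaled by library size alone and 8 with a muscle term, which left 0 rises.

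Lipid synthesis and storage genes went both ways. Of 25 lipogenic genes 4 rose and 3 fell. Mlxipl, the carbohydrate-responsive factor ChREBP, fell from 474, 568 and 545 CPM to 217, 287 and 310.3 CPM (1.95-fold, log2 fold change -0.96 ± 0.15 (SE), adjusted p = 0.00249), while Elovl6, which lengthens fatty acids, rose 2.46-fold (adjusted p = 0.00258). Of 19 lipid droplet and lipase genes 4 rose and 4 fell. G0s2, an inhibitor of the main triglyceride lipase, stood at 77.7, 101 and 228 CPM with saline, 36.4, 28 and 26.4 CPM under gefitinib alone and 17, 21.3 and 10.4 CPM in the combined group (8.33-fold, log2 fold change -3.06 ± 0.41 (SE), adjusted p = 0.00113). Its saline values did not overlap those of any treated library. Lpl, lipoprotein lipase, rose 3.52-fold and Lipe, hormone-sensitive lipase, fell 2.07-fold (adjusted p = 0.0043 and 0.00149). The lipogenic rises numbered 2 without saline replicate 2 or 3. A muscle term left 1 lipogenic gene that rose and 2 that fell, and 2 lipid droplet and lipase genes that rose and 3 that fell.

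Among apolipoproteins 8 of 22 fell and 1 rose. Apoa2, of high-density lipoprotein, fell from 11407, 11304 and 12366 FPKM to 8692, 7892 and 7827 FPKM (1.68-fold, log2 fold change -0.75 ± 0.16 (SE), adjusted p = 0.0101), and Apoa1, the main protein of that lipoprotein, did not pass (adjusted p = 0.542). With limma on log2(FPKM + 1) Apoa2 was not called (adjusted p = 0.164) and no member of the list was lower. The falls numbered 2 without saline replicate 3 or combined replicate 1 or by library size alone, 5 without combined replicate 3 and 3 with a muscle term.

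Some genes of amino acid breakdown fell. Of 38 tested genes of the urea cycle and amino acid catabolism 17 fell and 1 rose, with a median log2 fold change of -0.50. Amdhd1, an enzyme of histidine breakdown, was at 233, 271 and 271 CPM with saline, 222, 214 and 209 CPM under gefitinib alone and 141, 143 and 134 CPM in the combined group (1.86-fold, log2 fold change -0.89 ± 0.10 (SE), adjusted p = 0.00042). Hal and Uroc1, earlier steps of the same pathway, fell 2.5-fold and 1.69-fold (adjusted p = 0.00066 and 0.00144), and Gls2, liver glutaminase, fell 2.32-fold (adjusted p = 0.000429). Cps1, the entry enzyme of the urea cycle, overlapped at 1473, 2367 and 2033 CPM with saline and 1605, 1815 and 1622 CPM in the combined group (adjusted p = 0.41). The falls numbered 10 and 11 without saline replicates 2 and 3, 9 and 11 without combined replicates 1 and 3, and 9 by library size alone or with a muscle term, which left 0 rises.

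Of 43 tested subunits of the respiratory chain and ATP synthase 17 fell, each by less than 2-fold, and 0 rose. Sdhb, the iron-sulfur subunit of succinate dehydrogenase, stood at 193, 189.9 and 178 CPM with saline, 189.9, 178 and 179 CPM under gefitinib alone and 118, 135 and 130.2 CPM in the combined group. The combined libraries were the lowest (1.46-fold, log2 fold change -0.55 ± 0.094 (SE), adjusted p = 0.00397). By library size alone 2 fell and 1 rose. The falls numbered 8 without saline replicate 1 or 2, 6 without saline replicate 3, 11 without gefitinib replicate 2, 5, 10 and 7 without combined replicates 1, 2 and 3, and 6 with a muscle term. Of 24 genes of glucose production and glycogen 6 fell and 1 rose, with Pcx, pyruvate carboxylase, 1.69-fold lower (adjusted p = 0.00255) and G6pc, glucose-6-phosphatase, overlapping (adjusted p = 0.992). Of the gluconeogenic list 3 fell and 0 rose with a muscle term.

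Some genes that mark position in the lobule changed. Of 20 pericentral and Wnt target genes 3 rose and 2 fell, and Glul, glutamine synthetase of the hepatocytes around the central vein, did not pass at 484, 605 and 657 CPM with saline and 289.7, 593 and 609.95 CPM in the combined group (adjusted p = 0.612). Of 14 periportal genes 5 fell and 1 rose. Etnppl, a lyase of phosphoethanolamine, fell from 145, 154 and 139.6 CPM to 69, 35.8 and 43.7 CPM (2.96-fold, log2 fold change -1.56 ± 0.21 (SE), adjusted p = 0.0012). The pericentral list gave 3 rises and 0 falls with a muscle term, and the periportal list 0 and 4.

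Krt8 and Krt18, the keratin pair of simple epithelia including hepatocytes, rose from 142, 122 and 102 CPM to 748, 646 and 609 CPM (5.47-fold, log2 fold change 2.45 ± 0.15 (SE), adjusted p = 2.75e-05) and 2.94-fold (adjusted p = 0.00015). Krt19, which marks bile ducts, overlapped at 0.536, 1.63 and 0.336 CPM with saline and 0.924, 0.351 and 0.567 CPM in the combined group (adjusted p = 0.727). In this list of duct and progenitor genes 6 of 18 rose and 2 fell, and the falls numbered 0 without saline replicate 1 or 2 or with a muscle term and 1 without any 1 of the combined libraries.

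Metal and iron genes moved in both directions, 6 of 21 upward and 6 downward. Mt2, a metallothionein that binds zinc, rose from 162, 209 and 419 FPKM to 658, 742 and 1337 FPKM (2.98-fold, log2 fold change 1.58 ± 0.39 (SE), adjusted p = 0.0205), a call lost without saline replicate 1 (adjusted p = 0.0582), saline replicate 2 (0.0772) or combined replicate 3 (0.0697). Fth1, the ferritin heavy chain, rose from 1362, 1451 and 1595 CPM to 2605, 2498 and 2322 CPM (1.68-fold, log2 fold change 0.75 ± 0.11 (SE), adjusted p = 0.00143), and Tfrc, the transferrin receptor, rose 3.09-fold (adjusted p = 0.00802). Rises numbered 3, 2 and 2 without saline replicates 1 and 2 and combined replicate 3, and falls 3 without saline replicate 2 or 3 or combined replicate 1. Rises numbered 2 and falls 2 with a muscle term.

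Stress of the endoplasmic reticulum and heat shock left few calls. Of 30 genes of the unfolded protein response 1, Ppp1r15a, rose and 0 fell, and of 18 heat shock genes 2 rose, Bag3 and Hspb8. Ppp1r15a was called without saline replicate 1 and in no other fit that left out a library, and 1 heat shock gene rose without saline replicate 1 or 2 or combined replicate 2. Hspa5, the chaperone BiP, overlapped at 647, 561 and 542 CPM with saline and 581, 739 and 476 CPM in the combined group (adjusted p = 0.925). Scaled by library size alone 7 genes of the unfolded protein list rose. With a muscle term 0 of them rose and 1 fell, and neither heat shock gene was called (adjusted p = 0.0717 for Bag3 and 0.153 for Hspb8). Of 21 clock genes 3 rose and 4 fell. Arntl, the core activator, was at 19.2, 23 and 26.2 CPM with saline, 7.84, 6.08 and 9.83 CPM under gefitinib alone and 20.2, 12.2 and 19.4 CPM in the combined group, and did not pass against saline (adjusted p = 0.265). Without any 1 library other than combined replicate 2, there were 1 or 2 falls. Clock genes gave 0 rises and 1 fall with a muscle term, and by library size alone 1 fell.

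Several of the largest changes lay outside these groups. Gemin4 (ENSMUSG00000049396, chromosome 11, 76210571 to 76217664 on the minus strand), a protein of the SMN complex, was at 0, 0.0577 and 0.0373 CPM with saline, 7.73, 6.59 and 6.09 CPM under gefitinib alone and 9.09, 6.63 and 5.85 CPM in the combined group. The saline libraries alone were near 0 (log2 fold change 7.76 ± 0.50 (SE), adjusted p = 4.01e-05), and Gemin4 lies within Glod4 on the same strand, so its reads are uncertain. H2-M2, a nonclassical MHC class I gene, rose from 0.0715, 0 and 0 CPM to 5.94, 8.61 and 8.62 CPM (log2 fold change 8.18 ± 0.85 (SE), adjusted p = 0.000328). Sprr1a, a cornified envelope protein, stood at 0, 0.0769 and 0 CPM and 9.74, 9.29 and 2.94 CPM (log2 fold change 8.08 ± 0.93 (SE), adjusted p = 0.000566). Dusp8, a phosphatase of stress kinases, rose from 0.197, 0.0769 and 0.261 CPM to 13.1, 8.19 and 12.9 CPM (62.9-fold, adjusted p = 0.000101). In each of these 3 the combined libraries lay above all others. Among the largest falls, Clec2h, a lectin-like membrane protein, went from 32.7, 19.9 and 10.8 CPM to 2.33, 1.04 and 2.83 CPM (10.2-fold, log2 fold change -3.35 ± 0.47 (SE), adjusted p = 0.00138). Mup21 fell from 161, 332 and 464 CPM to 11.1, 15.5 and 18 CPM (21.4-fold, log2 fold change -4.42 ± 0.63 (SE), adjusted p = 0.0016), and reads of this family can be shared.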

How the data were processed

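Liver RNA of 9 libraries was compared, with groups taken from the treatment labels. Per the labels' protocols, RNA was column-extracted and libraries made with a SMARTer messenger RNA kit. The authors deposited raw counts of each gene as whole numbers, per the file headers and the values themselves. Beside them stand the authors' own FPKM, per the file headers. The builds GRCm38 and mm10 are given by the submitters' processing notes. Coordinates are 1-based, from the deposited table. No source used here names the aligner, the counting tool or a strand setting, so reads of overlapping genes, which 61 of the 204 named and called genes have, cannot be told apart. Of 27945 gene IDs, 27859 matched GENCODE M21, 27108 of them by symbol as well.

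Counts were fitted with edgeR 4.0.16 in R 4.3.3 (filterByExpr defaults, TMM factors 0.905 to 1.14, quasi-likelihood with 1 mean per group over all 9 libraries, 6 residual degrees of freedom). A gene was called at a Benjamini-Hochberg adjusted p under 0.05. Floors are 3 counts per library and cover counting error only. On simulated counts with this design (17543 genes), the share recovered was 5.97% at 1.5-fold, 46.3% at 2-fold and 83.3% at 4-fold, with 2 false among 92 calls. The simulation changed far fewer genes than were called in the data, and none at the lowest levels. It also gave each gene the spread of the fitted trend, so these shares need not hold for the data. The lists and named genes were chosen with earlier results of these data known. Genes were named by rule: the 12 largest rises and falls and the 8 largest rises and falls in FPKM among called genes with non-overlapping groups, at least 1 FPKM and outside the muscle and red cell lists, up to 4 called members and the first member of each list, and Egfr, Hsd11b1, Hsd11b2, Nr3c1 and Cyp3a11. Of these 233 genes the text gives a selection, and genes named only as the members of a list that rose or fell were named after their values were seen. Alternatives were median-ratio scaling, library size alone, no filter, at least 1 FPKM, only the 6 libraries compared, a robust prior, a replicate block, a muscle term, muscle genes left out, DESeq2 1.42.0, limma 3.58.1 on log2(FPKM + 1) and log2(FPKM + 0.1), a 2-fold minimum, and each library left out. Figures used matplotlib 3.10.9. Some genes are not reported here.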

Additional observations from a re-analysis of the deposited data

How the results depend on the processing

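Counts of changed, higher and lower genes were 3205, 1698 and 1507. A muscle term gave 1181, 662 and 519, and a minimum of 2-fold gave 1503, 946 and 557. Library size alone gave 2980 higher and 805 lower, limma on log2(FPKM + 1) 3314 and 849, and limma on log2(FPKM + 0.1) 3266 and 863. Leaving out each library in turn gave 2065 to 2967 changed, 1127 to 1618 higher and 938 to 1356 lower genes, and the lowest counts came without combined replicate 1 and saline replicate 2. Such a fit has 2 libraries in 1 group and assumes that they vary like the others. Same-numbered libraries of different groups did not deviate together (r from -0.076 to 0.072), so numbers were not taken as pairs; a replicate block gave 2496, 1346 and 1150. The other settings stayed within 1.5 times of each count. Of 204 named and called genes, a muscle term kept 140, other settings kept 181 or more of those tested, and none changed sign in any setting. Of genes given values, limma on log2(FPKM + 1) also lost Camp, Nr3c1 and Ppara. Changes under 2-fold can be missed at this depth and n. In the simulated counts 5.97% of 1.5-fold changes were recovered. In the data 752 of the genes called higher and 950 of those called lower changed by less than 2-fold.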
